A study of Mus musculus with 16 samples.

Results

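The genes described here are 6 whose signal rose when Bcl6b, a gene for a BTB zinc finger protein of the BCL6 family of repressors, was knocked down in cultured mouse spermatogonial stem cells. They are Sgip1, Mid1, Ppargc1a, Insyn2a, Cfp and Mmp13, out of 18193 genes with a probe set of their own on the array. They were chosen by measured values: the largest rises in Bcl6b knockdown over control in which all 4 knockdown arrays lay above all 4 control arrays. An unnamed clone, the interferon-induced chemokine gene Ccl5, and Phex and Exoc4, which also rose in the other knockdowns, were left out of the choice. The smallest rise inside that choice was that of Mmp13 (log2 difference 0.91), and the largest outside it were those of Ankrd29 (0.88) and 5430405H02Rik (0.86). Among all genes tested, with or without overlap of arrays, Ppargc1a and Cfp ranked 10 and 13 by this rise. Without Bcl6b knockdown replicate 1 each rose by 0.71, and they ranked 25 and 26. The comparison of Bcl6b knockdown with control chose the genes and is therefore given as a description, without a test. All 6 genes were called in it, in a comparison where 1.65% of the 11145 genes tested were called higher (4.08% of 11121 without Bcl6b knockdown replicate 1), and nothing is read from that count.

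The study compared 4 groups of 4 Affymetrix mouse expression arrays, 16 in all: a negative control short interfering RNA (siRNA) and siRNAs against Bcl6b, Etv5 or Pou3f1. Each treatment lasted 30 h, and all groups shared the same cells and medium. The cells came from lines begun with Thy1+ germ cells of the C57BL\6 background, kept without serum in medium holding GDNF (20 ng/ml), GFRα1 (150 ng/ml) and FGF2 (1 ng/ml). Knockdown was transient and partial. In its own knockdown the targeted gene stood at 0.49-fold of control for Bcl6b, 0.36-fold for Etv5 and 0.62-fold for Pou3f1. No label states that the 4 replicates of a group were separate cultures. The p-values therefore reflect only how far these samples lie apart, which may be technical.

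Markers of the labelled cell type were present: 10 of 10 spermatogonial stem cell markers and 6 of 6 germ cell markers lay above the array median on all 16 arrays. So did 8 of 8 fibroblast and feeder markers, 1 of which (Thy1) is also a stem cell marker, with a summed intensity between 99734 and 109119 on every array. Endothelial markers (4 of 4) lay below the array median on every array. Of the Sertoli cell markers Sox9 lay above it on all 16 arrays, and Wt1, Amh, Gata4 and Cldn11 on none. Of the Leydig cell markers Star and Hsd3b1 lay above it on all 16 arrays, and Cyp17a1 on none. Of 8 macrophage and leukocyte markers, Adgre1, Itgam and Mpo lay below it on every array, Cd68, Ptprc and Mrc1 above it on all 16, Lyz2 above it on 15 and Csf1r on 14. Bcl6b knockdown replicate 1 stood apart. There the 3' control probe set of Gapdh exceeded the 5' one by 1.03 on the log2 scale and that of Actb by 3.08. On the other 15 arrays these differences were -0.53 to -0.45 for Gapdh and 0.62 to 0.76 for Actb. The main results are given with and without this array.

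Proteins of the BCL6 family bind DNA through zinc fingers and recruit histone deacetylases through corepressors, so that a loss of the protein can release its targets. Etv5, an ETS factor induced by GDNF, and Pou3f1 act in the same self-renewal network as Bcl6b. The 6 genes belong to no single pathway. Ppargc1a encodes PGC-1α, a coactivator of mitochondrial biogenesis, and Mmp13 encodes collagenase 3, which cuts fibrillar collagen. Cfp encodes properdin, which stabilises the C3 convertase of the alternative complement pathway. Mid1 encodes a ubiquitin ligase of the TRIM family that binds microtubules and promotes the turnover of the protein phosphatase PP2A. Insyn2a encodes an inhibitory synaptic factor, and Sgip1 encodes an endophilin-interacting protein of clathrin-mediated endocytosis.

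Promoter windows of 300 bases around the start site were available for all 6 genes (8 windows, RefSeq, build GRCm38.p6). Those of Mmp13 and Ppargc1a, which were higher than control in every knockdown, and of Insyn2a and Cfp, whose group means had the same order, are shown so that the motifs searched can be read in place. Each is written 5′ to 3′ on the strand of its gene, with the matches in capitals. Mmp13 lies at chr9:7272264-7272563 (+), Ppargc1a at chr5:51567676-51567975 (-), Insyn2a at chr7:134938381-134938680 (-) and Cfp at chrX:20931506-20931805 (-).
Mmp13: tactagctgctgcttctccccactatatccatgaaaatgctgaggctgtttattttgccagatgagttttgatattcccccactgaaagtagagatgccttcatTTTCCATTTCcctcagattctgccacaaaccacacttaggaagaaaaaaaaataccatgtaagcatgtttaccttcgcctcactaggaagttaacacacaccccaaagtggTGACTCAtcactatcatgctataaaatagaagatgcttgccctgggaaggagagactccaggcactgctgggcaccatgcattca
Ppargc1a: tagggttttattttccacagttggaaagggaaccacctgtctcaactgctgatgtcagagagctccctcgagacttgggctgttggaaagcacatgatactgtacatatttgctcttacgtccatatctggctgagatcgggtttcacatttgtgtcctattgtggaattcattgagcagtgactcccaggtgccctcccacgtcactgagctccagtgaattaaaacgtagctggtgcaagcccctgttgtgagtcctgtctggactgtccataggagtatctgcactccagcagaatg
Insyn2a: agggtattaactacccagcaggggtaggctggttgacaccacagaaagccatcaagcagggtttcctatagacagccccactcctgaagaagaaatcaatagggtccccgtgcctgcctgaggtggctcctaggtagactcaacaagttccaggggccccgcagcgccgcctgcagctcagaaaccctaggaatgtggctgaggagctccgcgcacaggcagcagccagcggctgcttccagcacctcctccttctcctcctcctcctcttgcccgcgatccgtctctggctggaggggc
Cfp: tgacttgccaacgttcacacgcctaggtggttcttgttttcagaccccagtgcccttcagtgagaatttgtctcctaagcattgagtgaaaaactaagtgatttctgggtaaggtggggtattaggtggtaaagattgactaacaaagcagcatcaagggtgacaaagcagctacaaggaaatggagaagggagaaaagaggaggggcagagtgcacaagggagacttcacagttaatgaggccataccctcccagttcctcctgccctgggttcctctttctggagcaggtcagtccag
The BCL6 consensus TTCCTAGAA and the wider core TTCNNNGAA that STAT factors share with BCL6 were searched on both strands, and neither occurred in any of the 8 windows. They are in 0.411% and 8.3% of the 32851 promoter windows of all genes. The capitals mark 2 matches, both in Mmp13. The letters TGANTCA, an AP-1 element (7.81% of windows), occur as TGACTCA at base -35 from the start site. The core of an interferon response element (3.44% of windows) occurs on the minus strand at base -146. The cyclic AMP response element TGACGTCA (1.79% of windows) was in none of the 8. A match is a string of letters and not a bound site, and a window without one says nothing about the factor.

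Ppargc1a was higher in each of the 3 knockdowns than in control. Its brightest probe set read 393, 379, 346 and 400 on the control arrays. It read 1338, 703, 556 and 610 in Bcl6b knockdown, 614, 682, 561 and 647 in Etv5 knockdown, and 562, 628, 545 and 601 in Pou3f1 knockdown. All 12 knockdown arrays lay above all 4 control arrays, and the highest reading was that of Bcl6b knockdown replicate 1, the array with the 3' shift. The ranges of the 3 knockdowns overlapped on the other arrays. The rise over control was 1.98-fold in Bcl6b knockdown with that array (log2 difference 0.99) and 1.64-fold without it (0.71). Beside it stood rises of 1.65-fold in Etv5 knockdown (log2 difference 0.72 ± 0.19 SE) and 1.54-fold in Pou3f1 knockdown (0.62 ± 0.19). These 3 comparisons share the control arrays, which the choice required to lie below the Bcl6b knockdown arrays. That favours rises over control in the other knockdowns too. With 16 arrays the last pair did not pass limma's test (adjusted p of 0.0747 and 0.133). Without Bcl6b knockdown replicate 1, which enters neither comparison but widens the shared spread, both passed, at adjusted p of 4.74e-06 and 2.75e-05.

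Contrasts of Bcl6b knockdown with the other knockdowns use the Bcl6b knockdown arrays in which the genes were chosen to be high, which favours high values there. Bcl6b knockdown minus Etv5 knockdown was 0.27 for Ppargc1a with 16 arrays (95% interval -0.14 to 0.68, adjusted p 0.487) and -0.01 with 15 (interval -0.18 to 0.16). Bcl6b knockdown minus Pou3f1 knockdown was 0.37 with 16 arrays (interval -0.04 to 0.77, adjusted p 0.359) and 0.09 with 15 (interval -0.08 to 0.26). A rise of Ppargc1a particular to Bcl6b knockdown was thus not found, and the sign of its difference from Etv5 knockdown turned on 1 array.

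All 5 probe sets of Ppargc1a behaved alike, the only member gene with more than 1 probe set above the array median. Their mean differences from control were 0.19 to 0.67 in Pou3f1 knockdown and 0.25 to 0.72 in Etv5 knockdown. In Bcl6b knockdown they were 0.35 to 0.71 over the 3 arrays other than replicate 1. The exception was the probe set with a control mean of 208, which read 197 on replicate 1, below its control range of 202 to 214, while the other 4 probe sets read highest on that array. In a fit of all 45037 probe sets none of the 5 passed in Etv5 or Pou3f1 knockdown with 16 arrays. With 15 arrays 4 of the 5 passed in Etv5 knockdown (adjusted p 7.05e-05 to 0.0477), and 2 in Pou3f1 knockdown (3.04e-04 and 0.00128).

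Mmp13 also rose in more than one knockdown. Its single probe set read 40.3, 48.2, 50.4 and 51.0 in control. The readings were 100.4, 97.9, 73.7 and 90.3 in Bcl6b knockdown, 92.7, 74.5, 71.6 and 65.3 in Etv5 knockdown and 63.1, 57.5, 59.0 and 67.3 in Pou3f1 knockdown. All knockdown arrays lay above all control arrays, in the order Bcl6b, Etv5, Pou3f1 by mean, with Bcl6b and Etv5 overlapping, and Etv5 and Pou3f1 as well. Here too the choice favoured low control arrays, and so rises over them. The log2 difference from control was 0.66 ± 0.12 in Etv5 knockdown (1.58-fold, adjusted p 0.00694), which passed with 16 arrays and with 15 (8.02e-04). In Pou3f1 knockdown it was 0.38 ± 0.12 (1.30-fold, adjusted p 0.153), which passed with 15 arrays alone (0.0353). The rise in Bcl6b knockdown, 1.89-fold (0.91, and 0.86 without replicate 1), exceeded that in Pou3f1 knockdown by 0.54 (adjusted p 0.0262), a call lost in 5 of the 16 fits that leave out 1 array (adjusted p up to 0.0915). It did not pass against Etv5 knockdown (0.25, interval -0.0049 to 0.51, adjusted p 0.357). Both contrasts use the Bcl6b knockdown arrays in which Mmp13 was chosen to be high, which favours a rise there.

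Ppargc1a and Mmp13 supplied every call of the 6 in the comparisons of the other knockdowns with control. These comparisons use the control arrays in which the genes were chosen to be low, which favours calls of a rise. With 16 arrays 1 of 6 was called higher in Etv5 knockdown (Mmp13), where 1.31% of all genes tested were. None of the 6 was called in Pou3f1 knockdown by limma, where 1.03% of all genes were called higher, although 2 rose (Ppargc1a and Mmp13) and 1 fell (Insyn2a) at an unadjusted p under 0.05. The share of all genes under that unadjusted threshold was not counted, and nothing is read from these counts. With 15 arrays Ppargc1a and Mmp13 were called in both knockdowns, against 4.59% and 4.33% of all genes. Arrays of the knockdown all lay above those of control for the same pair of genes, in Etv5 knockdown (6.9% of all genes) and in Pou3f1 knockdown (6.4%). The median difference of the 6 was 0.42 in Etv5 knockdown and 0.02 in Pou3f1 knockdown, beside medians over all genes tested of -0.03 and -0.02.

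**Figure D1:**
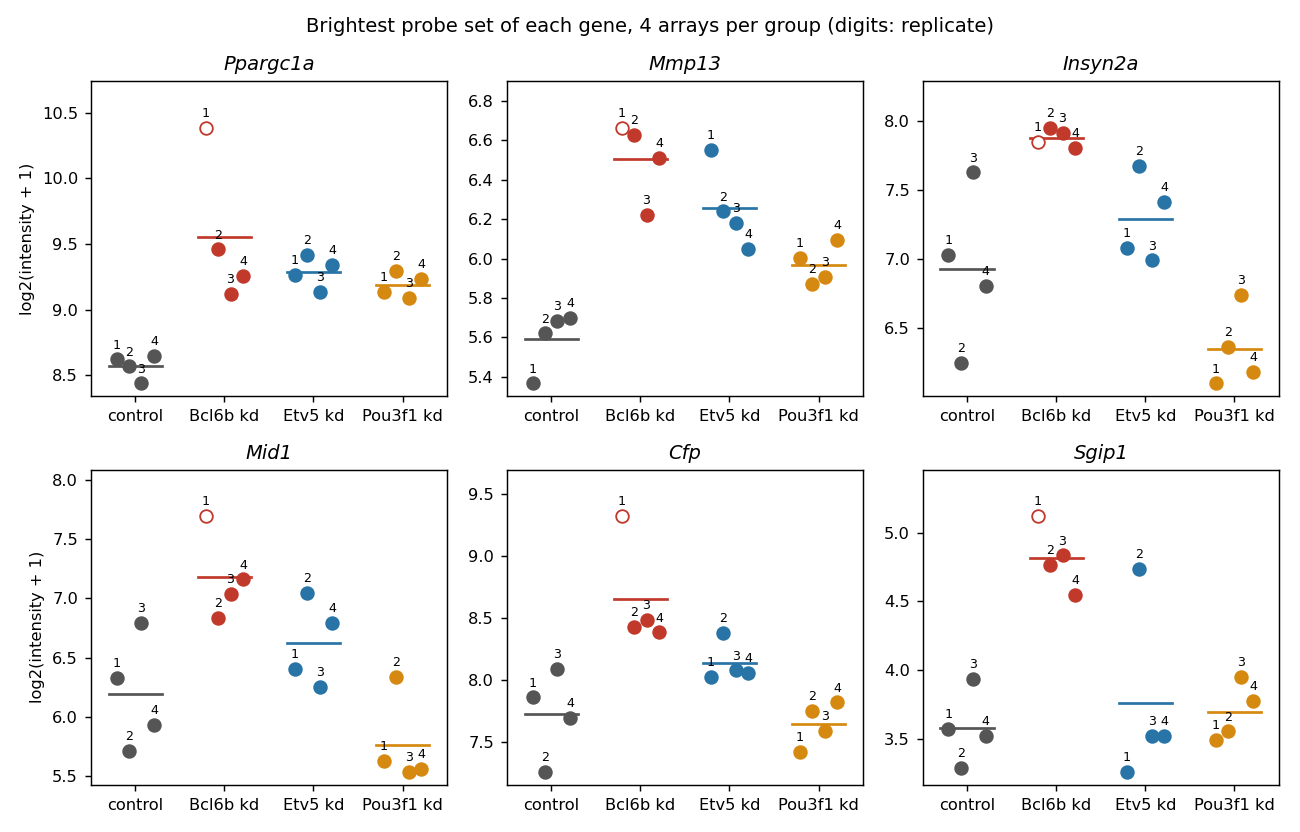
Log2(intensity + 1) of the brightest probe set of each gene on every array (points, numbered by replicate) with group means (lines), in control and the 3 knockdowns; the open point is Bcl6b knockdown replicate 1. Ppargc1a and Mmp13 are above control in every knockdown, Insyn2a, Mid1 and Cfp are highest in Bcl6b knockdown and lowest in Pou3f1 knockdown by mean, and Sgip1 is high in Bcl6b knockdown and on 1 Etv5 knockdown array.

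Insyn2a varied little between the arrays of Bcl6b knockdown (SD 0.066 on the log2 scale) and more between those of control (0.57). It read 229, 247, 240 and 223 there, against 130, 75.1, 197 and 111 in control. The readings were 134, 203, 126 and 169 in Etv5 knockdown and 67.7, 81.7, 106 and 71.9 in Pou3f1 knockdown. All Bcl6b knockdown arrays lay above all 12 others, and all Etv5 knockdown arrays lay above all Pou3f1 knockdown arrays. For all 6 genes the place above control was fixed by the choice. Of all genes tested 3.37% lay without overlap higher in Bcl6b than in Etv5 knockdown. The share was 4.8% for Bcl6b above Pou3f1 knockdown and 5.71% for Etv5 above Pou3f1 knockdown. The log2 difference from control was 0.95 (1.93-fold) and hardly moved without replicate 1 (0.96). Bcl6b minus Pou3f1 knockdown was 1.53 ± 0.23 (2.89-fold, adjusted p 0.00111), and Bcl6b minus Etv5 knockdown was 0.59 ± 0.23 (1.51-fold, adjusted p 0.269). Here, and for Mid1 and Cfp below, both contrasts use the Bcl6b knockdown arrays in which the genes were chosen to be high. That favours a rise, so these values are a description.

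Mid1 read 206, 113, 130 and 142 in Bcl6b knockdown and 79.2, 51.5, 110 and 60.0 in control. It read 83.6, 131, 75.1 and 110 in Etv5 knockdown and 48.6, 79.7, 45.3 and 46.2 in Pou3f1 knockdown. The Bcl6b arrays were all above the control and Pou3f1 arrays, and overlapped with the Etv5 arrays. The rise over control was 1.98-fold (log2 difference 0.99, and 0.82 without replicate 1). Bcl6b minus Pou3f1 knockdown was 1.41 ± 0.26 (2.67-fold, adjusted p 0.00526), and Bcl6b minus Etv5 knockdown was 0.56 ± 0.26 (1.47-fold, adjusted p 0.338).

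Cfp read 638, 344, 358 and 333 in Bcl6b knockdown and 231, 152, 271 and 206 in control. The readings in Etv5 knockdown were 259, 333, 269 and 265, and those in Pou3f1 knockdown 170, 215, 192 and 225. The highest Etv5 array and the lowest Bcl6b array round to the same intensity, so their separation is nominal. Replicate 1 carried much of the rise, 1.90-fold (log2 difference 0.93) with it and 1.63-fold (0.71) without it. Bcl6b minus Pou3f1 knockdown was 1.01 ± 0.20 (2.01-fold, adjusted p 0.0103), or 0.79 (adjusted p 0.00201) without that array. Bcl6b minus Etv5 knockdown was 0.52 ± 0.20 (1.43-fold, adjusted p 0.26), or 0.30 without it.

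Insyn2a, Mid1 and Cfp kept the order Bcl6b, Etv5, control, Pou3f1 by mean. The place of Bcl6b above control in it was fixed by the choice. The steps of Etv5 and of Pou3f1 knockdown from control did not pass for any of them: Etv5 minus control was 0.36, 0.43 and 0.41, and Pou3f1 minus control was -0.58, -0.43 and -0.08, in that order of genes. The difference between Etv5 and Pou3f1 knockdown uses none of the Bcl6b knockdown and control arrays by which the rises were ranked. In the fit of all 4 groups its SE and adjusted p do rest on those arrays, through the shared spread. The choice also looked at Etv5 and Pou3f1 knockdown when it set Phex and Exoc4 aside. In that contrast the 3 genes differed by 0.94 ± 0.23, 0.86 ± 0.26 and 0.49 ± 0.20, with adjusted p of 0.058, 0.166 and 0.426. None of the 6 genes was called in it by limma with 16 arrays, where 0.933% of all genes were called higher, while 4 had an unadjusted p under 0.05 (Mid1, Insyn2a, Cfp and Mmp13). The share of all genes under that unadjusted threshold was not counted, and nothing is read from the 4. With 15 arrays Insyn2a, Mid1 and Cfp were all called higher in Etv5 knockdown (adjusted p 0.0118, 0.0241 and 0.0351), against 3.77% of all genes. With 16 arrays the calls varied with the fit: Insyn2a, Cfp and Mmp13 were called with array weights, Insyn2a, Mid1 and Cfp with only the groups compared, and Insyn2a alone with median centring. The share of all genes called under these other fits was not counted, and nothing is read from their counts.

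Each of Insyn2a, Mid1 and Cfp was represented by 1 bright probe set. The other probe sets of these genes did not move with it. The remaining pair of Insyn2a had control means of 8.29 and 3.91, that of Mid1 5.78 and 4.20, and the second of Cfp 15.4, beside array medians of 15.6 to 17.1. Their mean differences from control lay between -0.06 and 0.07 in every knockdown. Which transcript the bright probe sets detect was not tested here.

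Sgip1 is a dim gene, above the array median in Bcl6b knockdown but not in control. Its brightest probe set read 33.7, 26.2, 27.5 and 22.4 there, and 10.9, 8.78, 14.3 and 10.5 in control, where no array was above its own median. It read 8.59, 25.6, 10.5 and 10.5 in Etv5 knockdown and 10.3, 10.8, 14.5 and 12.7 in Pou3f1 knockdown. Outside Bcl6b knockdown 1 array was above its median, Etv5 knockdown replicate 2, so Sgip1 passed the filter on dim genes through the group in which it was high and had to differ. All Bcl6b knockdown arrays were above the control and Pou3f1 arrays, and 1 of them was below Etv5 knockdown replicate 2. Among all probe sets of an array it lay at percentiles 43.7 to 49.1 in control and 51.9 to 55.2 in Bcl6b knockdown. The log2 difference from control was the largest of the 6 (1.24, and 1.14 without replicate 1), over a small distance in rank.

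Because of that filter and of the choice, its differences from the other knockdowns are given as a description and are no evidence that its rise was particular to Bcl6b knockdown. Bcl6b minus Etv5 knockdown was 1.06 ± 0.25 for Sgip1 (2.08-fold, adjusted p 0.0495 in limma), and this call was lost in 14 of the 16 fits that leave out 1 array, with adjusted p up to 0.195. Bcl6b minus Pou3f1 knockdown was 1.12 ± 0.25 (adjusted p 0.0266), a call lost in 5 of the 16 (adjusted p up to 0.0912). Its 4 other probe sets had control means of 6.92 to 12.3, below the median on all arrays, and differed from control by at most 0.11 in any knockdown with 16 arrays. A further probe set that the annotation shares among Sgip1, Cog6 and Noct was not used.

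**Figure D2:**
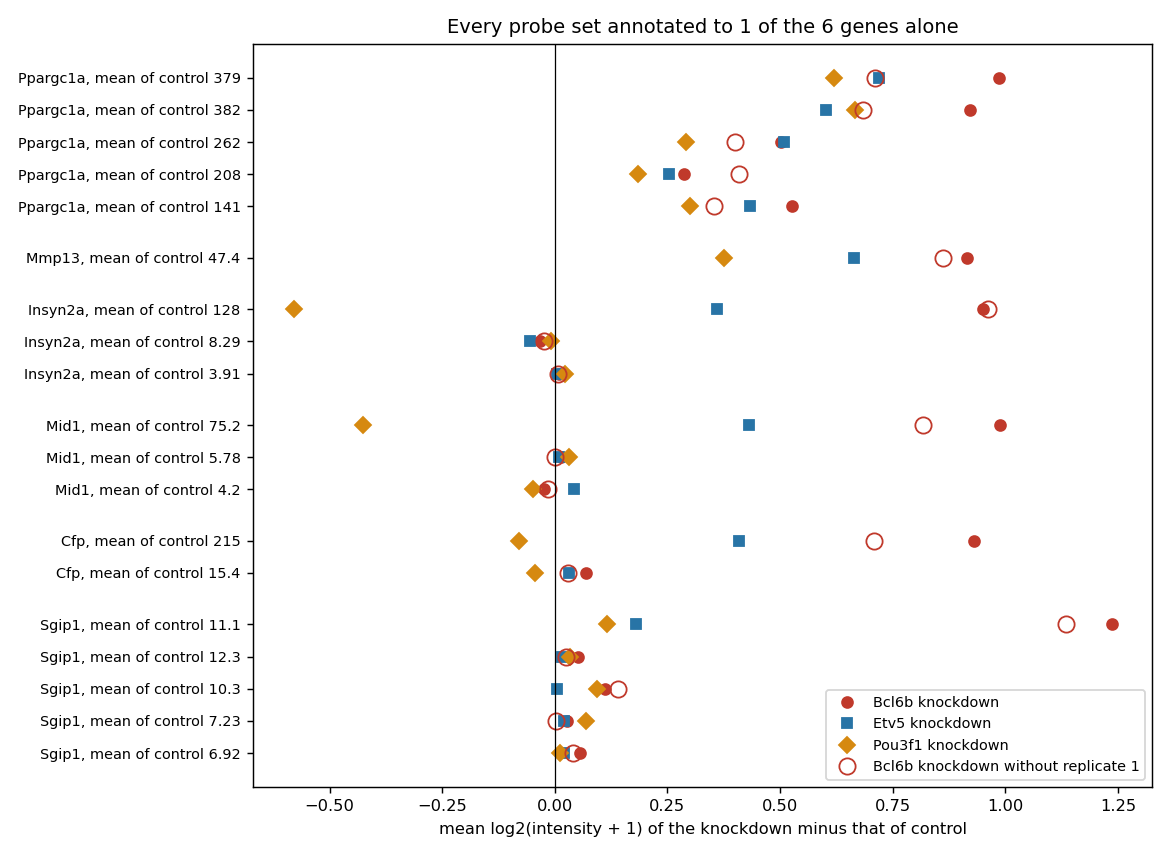
Mean log2(intensity + 1) of each knockdown minus that of control for the 19 probe sets annotated to 1 of the 6 genes alone, labelled by their mean control intensity; open circles leave out Bcl6b knockdown replicate 1. The 5 Ppargc1a probe sets all lie to the right of 0, while in Insyn2a, Mid1, Cfp and Sgip1 the brightest alone lies far from 0 in Bcl6b knockdown. The Sgip1 probe set labelled 10.3 lies slightly to the right of 0 in Bcl6b knockdown, a little more without replicate 1.

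Counted over the 6 genes, Bcl6b knockdown stood further from Pou3f1 than from Etv5 knockdown. Both contrasts share the Bcl6b knockdown arrays with the choice of the genes, so these counts are a description and nothing is read from their excess over all genes. Against Pou3f1 knockdown 5 of 6 were called higher (all but Ppargc1a), where 1.44% of all genes were, and the same 5 with 15 arrays (2.88%). Among them is Sgip1, which the filter admitted through Bcl6b knockdown. Their arrays were all above those of Pou3f1 knockdown for the same 5, against 4.8% of all genes. Against Etv5 knockdown 1 of 6 was called, where 0.583% of all genes were, and Sgip1 again with 15 arrays (1.6%), while Insyn2a and Cfp had no overlap (3.37% of all genes). The median difference of the 6 was 1.06 from Pou3f1 knockdown and 0.54 from Etv5 knockdown, or 0.90 and 0.34 with 15 arrays, beside medians of all genes tested between -0.02 and 0.01. Between Etv5 and Pou3f1 knockdown Insyn2a and Cfp had no overlap (5.71% of all genes higher without overlap), and the median of the 6 was 0.39.

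**Figure D3:**
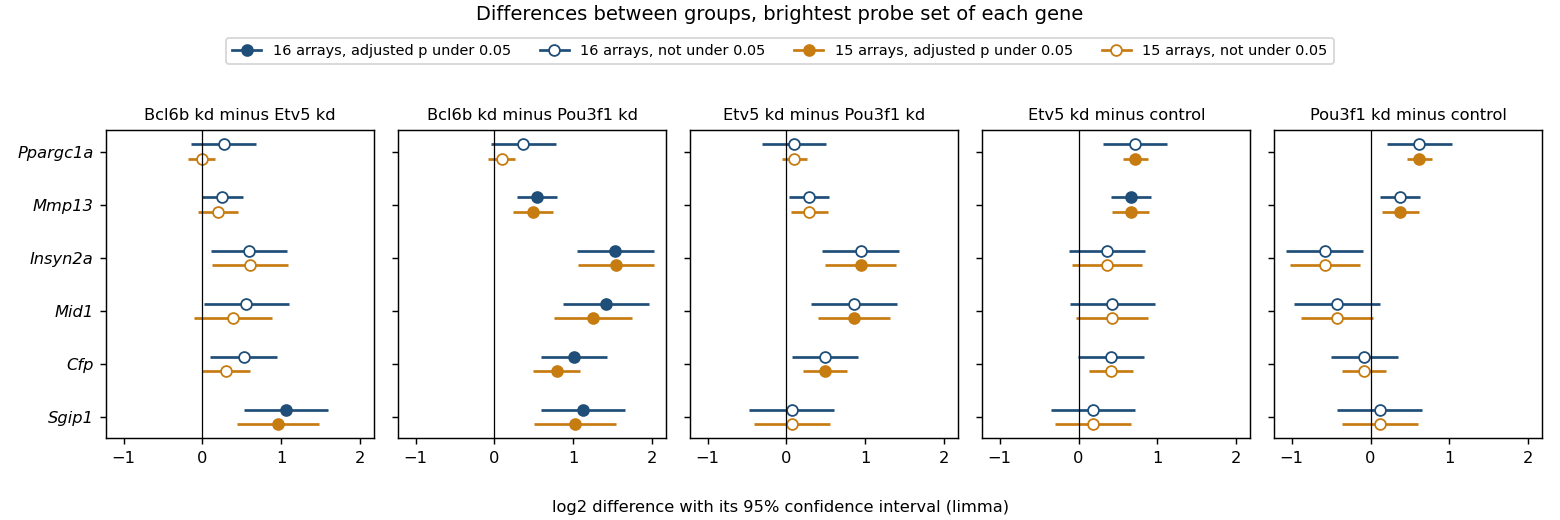
Log2 differences with 95% confidence intervals from limma for 5 contrasts (panels) and the 6 genes (rows), with 16 arrays and with 15, without Bcl6b knockdown replicate 1; filled points have an adjusted p under 0.05. Against Pou3f1 knockdown 5 genes are filled, against Etv5 knockdown Sgip1 alone, and the intervals of Ppargc1a narrow without the array that stands apart.

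Bcl6b itself was low in 2 of the knockdowns. Bcl6b read 765, 611, 718 and 791 in Bcl6b knockdown and 620, 618, 899 and 608 in Etv5 knockdown. It read 1526, 1440, 1341 and 1504 in control and 1658, 1567, 1714 and 1421 in Pou3f1 knockdown. Bcl6b minus Etv5 knockdown was 0.09 (interval -0.16 to 0.33, adjusted p 0.704). Beside those levels of Bcl6b, the log2 differences of the genes from control, in Bcl6b and then in Etv5 knockdown, were 1.24 and 0.18 for Sgip1, 0.99 and 0.43 for Mid1, and 0.95 and 0.36 for Insyn2a. They were 0.93 and 0.41 for Cfp, 0.99 and 0.72 for Ppargc1a, and 0.91 and 0.66 for Mmp13. All 6 were larger in Bcl6b knockdown, the group they were chosen in, and without replicate 1 the pair for Ppargc1a was 0.71 and 0.72. In bulk RNA fewer cells of a type and less RNA per cell cannot be told apart, for Bcl6b and for these genes.

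Within groups, the genes were compared by the deviation of each array from the mean of its group. Among the control arrays replicate 3 was highest and replicate 2 lowest for Sgip1, Mid1, Insyn2a and Cfp alike. Etv5 knockdown replicate 2 was the highest of its group for these 4 and for Ppargc1a. Over 15 arrays r was 0.79 for Insyn2a with Cfp, 0.72 for Mid1 with Cfp, 0.71 for Insyn2a with Mid1, 0.70 for Insyn2a with Sgip1, 0.66 for Cfp with Sgip1 and 0.48 for Mid1 with Sgip1. Ppargc1a and Mmp13 had r between -0.27 and 0.19 with the other genes and with each other. These values are a description, since the choice required the Bcl6b knockdown arrays to lie above the control arrays and so used single arrays of both groups. Over the 8 arrays of Etv5 and Pou3f1 knockdown, none of the 15 pairs passed a two-sided exact permutation test that reorders arrays within groups. The smallest p was that of Ppargc1a with Mid1 (r 0.86, rho 0.90, exact permutation p 0.00868 for both, adjusted 0.13 for both), and r was 0.79 without the 2 arrays farthest from the median for Ppargc1a. Insyn2a with Sgip1 followed (r 0.74, rho 0.60, exact permutation p 0.0243 and 0.153, adjusted 0.182 and 0.69), and r was 0.13 without the 2 arrays farthest for Insyn2a. For Cfp with Sgip1 r was 0.71 and rho 0.79 (exact permutation p 0.0712 and 0.0226, adjusted 0.356 and 0.169), and r was 0.23 without the 2 arrays farthest for Cfp. Without the 2 arrays farthest for Sgip1 it was 0.68. Movement of these genes together within groups was thus not shown in the Etv5 and Pou3f1 knockdown arrays. With 8 arrays and 15 pairs the test could miss such movement.

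The genes whose levels were most like each member over 15 arrays, out of 10750 compared, are given as a description, since arrays of a group share their treatment. Insyn2a was most like Kcnq1ot1, a long nuclear RNA (r 0.97), then Gdap10 (0.96) and Nktr (0.95). Mid1 was most like Tmem245 and Zbtb20 (both 0.92) and Hsd3b7 (0.89), and Cfp like Zbtb20 (0.90), Tmem245 and Kcnq1ot1 (both 0.89). Cfp and Mid1 thus had the same 2 genes among their nearest 3. For Sgip1 these were Stx16 (0.94), Pwwp2a (0.91) and Dgkh (0.88), and for Mmp13 Dab2 and Plxna2 (both 0.89) and Casp4 (0.88). For Ppargc1a they were Rab8b, Exoc4 and Asph (each 0.95).

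The wider pathways of the 6 genes were counted against control with 16 arrays, without the 6 genes themselves. Over all genes tested 1.65% were called higher and 1.56% lower in Bcl6b knockdown, or 4.08% and 6.82% with 15 arrays. The share called lower was 0.781% in Etv5 and 1.22% in Pou3f1 knockdown, or 4.97% and 7.11% with 15 arrays. In lists of this size such shares give a call or so, and nothing is read from single calls. Counts at an unadjusted p, here and below, have no share of all genes beside them, and nothing is read from them. Genes named from the fit with 15 arrays alone were picked after their values had been seen. Of 27 tested genes of mitochondrial biogenesis and PGC-1 partners, 1 rose in Bcl6b knockdown and none fell (1 rose and 1, Esrra, fell with 15 arrays). The gene that rose was Sirt3, a mitochondrial deacetylase and known target of PGC-1α, with log2 differences of 0.28 in Bcl6b knockdown (adjusted p 0.0237), 0.26 in Pou3f1 knockdown (0.0419) and 0.23 in Etv5 knockdown (0.0806). The median of the list in Bcl6b knockdown was 0.00, beside -0.01 for all genes tested.

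Of 12 tested genes of the alternative complement pathway and its regulators limma called none in Bcl6b knockdown, with 2 higher and none lower at an unadjusted p under 0.05. The smallest p values over the knockdowns were those of Masp1, a serine protease gene of complement activation (0.16 in Etv5 knockdown, adjusted p 0.118), and Cfb, factor B of the convertase that properdin stabilises (0.39 in Bcl6b knockdown, adjusted p 0.112, and 0.22 without replicate 1). Of 17 tested metalloproteinases and inhibitors limma called none in Bcl6b knockdown, with 2 higher and 5 lower at an unadjusted p under 0.05. With 15 arrays 2 were called higher (Mmp3 and Reck) and 3 lower (Mmp11, Plat and Timp3). In Pou3f1 knockdown Timp2, an inhibitor of these enzymes, fell by 0.27 (adjusted p 0.00175). The medians of both lists in Bcl6b knockdown were 0.08 and -0.05.

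Clathrin-mediated endocytosis, the process of Sgip1, had 27 tested genes, of which 1 rose and 2 fell in Bcl6b knockdown, with a median of -0.10. Of all genes tested 1.65% rose and 1.56% fell there. With 15 arrays 2 of the list rose and 4 fell, beside 4.08% and 6.82% of all genes. Eps15, an adaptor of coated pits to which SGIP1 is known to bind, rose in every knockdown: by 0.34 in Bcl6b knockdown (adjusted p 0.0104), 0.55 in Etv5 knockdown (3.12e-04) and 0.51 in Pou3f1 knockdown (5.88e-04). Necap1, an adaptor-binding protein of coated vesicles, fell in Bcl6b knockdown (-0.69, adjusted p 0.00109), with -0.23 and -0.25 in Etv5 and Pou3f1 knockdown. Sh3gl1, an endophilin, fell there too (-0.54, adjusted p 0.0218, and -0.39 without replicate 1). Of 16 tested MID1 partners and related TRIM ligases limma called none in Bcl6b knockdown, with 1 higher and 1 lower at an unadjusted p under 0.05. With 15 arrays 1 was called higher (Ppp2r1a) and 2 lower (Mtor and Rptor). Ppp2r1a, a scaffold subunit of PP2A, rose in Etv5 knockdown (0.30, adjusted p 0.0321) and did not pass in Bcl6b knockdown with 16 arrays (0.24, adjusted p 0.0751). Of 6 tested genes of the inhibitory synapse limma called none, with 1 higher at an unadjusted p under 0.05, and Gphn, the scaffold gephyrin, differed by -0.02 (adjusted p 0.907) and Dynll2, a dynein light chain, by 0.27 (adjusted p 0.245).

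Of 22 tested genes of the BCL6 family and its corepressors other than Bcl6b, limma called none in Bcl6b knockdown, with 2 higher and 2 lower at an unadjusted p under 0.05. In Etv5 knockdown Hdac1, a histone deacetylase of corepressor complexes, fell by 0.19 (adjusted p 0.0377). The interferon response, which the choice of the 6 genes set aside, had the order of group means of Insyn2a, Mid1 and Cfp: Bcl6b, Etv5, control, Pou3f1. Of 29 tested genes 6 rose in Bcl6b knockdown (16 of 29 with 15 arrays), none were called in Etv5 knockdown by limma (4 higher at an unadjusted p under 0.05) and 22 fell in Pou3f1 knockdown. The median of that list was 0.38, 0.10 and -0.76 in the same order. Ccl5, which the choice left out, differed from control by 1.07, 0.04 and -1.97, and Oas2 by 0.46, 0.03 and -0.76. Insyn2a, Mid1 and Cfp were also lower on average in Pou3f1 knockdown than in control (-0.58, -0.43 and -0.08), without passing the test. For Cfp the sign turned without control replicate 3 (0.041). The differences of the 3 genes from control in Etv5 knockdown did not pass either, and Bcl6b above control was fixed by the choice. A response shared with that list was not tested.

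Cell type markers were set beside these results, and their part in them was not tested. The summed intensity of 8 macrophage and leukocyte markers was 254 to 286 in Bcl6b knockdown and 276 to 349 in control, 205 to 253 in Etv5 and 243 to 319 in Pou3f1 knockdown. It stands beside Cfp, a gene of myeloid cells. Mrc1 fell in Etv5 knockdown (-1.31, adjusted p 0.00189). Of 8 fibroblast markers limma called none in any knockdown with 16 arrays. At an unadjusted p under 0.05, 1 was higher in Bcl6b knockdown, which was Pdgfrb (0.55, adjusted p 0.0928, and 0.30 without replicate 1), and 1 was lower in each of the other knockdowns. With 15 arrays 1 was called higher in Bcl6b knockdown (Pdgfrb) and 2 in Etv5 knockdown (Pdgfrb and Postn), while in Pou3f1 knockdown 1 was called higher (Postn) and 1 lower (Col1a1). Beside Mmp13, an enzyme of connective tissue cells, their summed intensity was 99944 to 105998 in Bcl6b knockdown and 103360 to 109119 in Etv5 knockdown. It was 103081 to 105656 in control and 99734 to 104116 in Pou3f1 knockdown, and the ranges of all 3 knockdowns overlapped with that of control.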

How the data were processed

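RNA of 16 samples was copied into cDNA from an oligo(dT) primer and put on arrays with a biotin label by the authors, per the labels' protocols. Where RNA is degraded, such priming makes the signal of a probe depend on its distance from the 3' end. What was deposited is 1 intensity value per probe set and array, on a linear scale from 1.66 to 71511, already summarised by the authors. Partek 6.4, Affymetrix Expression Console 1.1, GCRMA and MAS5 are named in the submitters' processing notes without their roles, so how background was removed is not known here.

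Of 45037 probe sets other than controls, 34945 had 1 gene, 932 several and 9160 none in the annotation used here. The probe set with the highest mean stood for each of 18193 genes. Genes with at least 4 arrays above their own median were tested (11145, or 11121 without Bcl6b knockdown replicate 1) on the log2(intensity + 1) scale, which understates changes of dim genes. limma 3.58.1 in R 4.3.3 fitted the 4 groups together, with an intensity trend and no covariate. Tests were two-sided, p-values were adjusted by Benjamini-Hochberg over all genes tested, and 0.05 was the threshold for a call. With 4 arrays a group, their number limits the precision. No 2 arrays held identical values. Deviations of same-numbered arrays of different groups correlated weakly (median r 0.06, range -0.26 to 0.20 over 24 pairs). For the 72 pairs with other numbers the median was -0.02 (range -0.29 to 0.20). A pairing by number is not known, and these values do not exclude one. The figures were made with matplotlib 3.10.9. The script was tested on simulated data.

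The 6 genes, the gene lists and the tests were chosen with earlier results of these data known. Beyond the 6 genes and the 3 targets, up to 4 called genes of each list were named by adjusted p over the comparisons with control, or the 2 with the smallest p. So were the 3 genes most correlated with each of the 6. The genes close to the choice and the within-group correlations were taken up after values had been seen.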

Additional observations from a re-analysis of the deposited data

Results flagged for a closer look

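Of 24 groups of 4 arrays checked (6 genes in 4 groups), 3 had an array far from the other 3, by a gap that took up most of the range of the group. A few such groups can arise by chance alone.

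Mid1 read 79.7 on Pou3f1 knockdown replicate 2 and 45.3 to 48.6 on the other arrays of that group, a gap of 0.878 of the range. Without that array all Pou3f1 knockdown arrays lay below all control arrays for Mid1. With it the groups overlapped, and their difference did not pass limma's test (-0.43, adjusted p 0.566). The array was set aside for its own value, so nothing is read from that separation.

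For Cfp the first replicate of Bcl6b knockdown read 638, and its other arrays read 333 to 358 (0.889 of the range). That array is the one with the 3' shift of the control probe sets.

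Cfp read 333 on Etv5 knockdown replicate 2 and 259 to 269 on the others (0.85 of the range). The same array was also the highest of its group for Sgip1, Mid1, Insyn2a and Ppargc1a.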

How the results depend on the processing

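The single call against Etv5 knockdown (Sgip1) fell to 0 under quantile normalization, without the filter, with a filter at a mean log2 of 5, under the mean over probe sets, with every probe set tested, without the trend and with only the groups compared, and was 0 to 1 with 1 array left out. It was kept without Bcl6b knockdown replicate 1 and without Etv5 knockdown replicate 2, with adjusted p of 0.00157 to 0.195 over those fits. The 5 calls against Pou3f1 knockdown became 3 under the mean over probe sets (4 genes tested) and with only the groups compared, and 3 to 5 with 1 array left out. Sgip1 lost its call there without Bcl6b knockdown replicates 2 or 3 or Pou3f1 knockdown replicates 1, 2 or 4. Mmp13 lost it without Bcl6b knockdown replicates 2 or 4 or Pou3f1 knockdown replicates 1, 2 or 3, while Mid1, Insyn2a and Cfp kept it in all 16 fits. Every such fit keeps Bcl6b knockdown arrays in which the genes were chosen to be high, so nothing is read from calls that were kept.

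In Etv5 knockdown against control the 1 call became 2 (Ppargc1a added) under the mean over probe sets, array weights and only the groups compared, and was 1 to 2 with 1 array left out, 2 without Bcl6b knockdown replicate 1. In Pou3f1 knockdown against control 0 became 2 under array weights and only the groups compared, and was 0 to 2 with 1 array left out, 2 without Bcl6b knockdown replicate 1. Between Etv5 and Pou3f1 knockdown 0 became 1 under median centring (Insyn2a), 3 under array weights (Insyn2a, Cfp and Mmp13) and 3 with only the groups compared (Mid1, Insyn2a and Cfp). With 1 array left out it was 0 to 3: 3 without Bcl6b knockdown replicate 1, and 1 (Insyn2a) without control replicate 2 or 3. The median difference of the genes between Bcl6b knockdown and control, 0.97, was 0.57 under the mean over probe sets and 0.84 to 1.12 with 1 array left out. A pseudocount of 16 changed no count by over 1.5 times. Beyond the main fit and that without Bcl6b knockdown replicate 1, the share of all genes called was not counted.

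The differences whose sign turned were small. Ppargc1a in Bcl6b minus Etv5 knockdown was -0.024 under array weights and -0.0095 to 0.41 with 1 array left out. Sgip1 in Etv5 knockdown minus control was -0.027 under array weights and -0.14 to 0.35 with 1 array left out, negative without Etv5 knockdown replicate 2. Sgip1 in Etv5 minus Pou3f1 knockdown was -0.091 under array weights and -0.26 to 0.23 with 1 array left out, negative without Etv5 knockdown replicate 2 and, at -0.0023, without Pou3f1 knockdown replicate 1. Cfp in Pou3f1 knockdown minus control was -0.24 to 0.041 with 1 array left out, positive without control replicate 3. The cause of these changes was not tested.

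With the replicate number as a block the calls were 0 against Etv5 knockdown and 3 against Pou3f1 knockdown (Mid1, Insyn2a and Cfp). Same-numbered arrays have no known pairing, but their weak correlation does not exclude one. Signal near the array median limits Sgip1, and 1 bright probe set each limits Insyn2a, Mid1 and Cfp.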
